A study of Mus musculus with 9 samples.

Results

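IAPEz-int is the name that repeat annotation gives to the internal part of IAPEz, a mouse endogenous retrovirus of the intracisternal A particle (IAP) group within the ERVK class of LTR retrotransposons. All copies named IAPEz-int in the deposited table of repeat expression are described here, 426 of 38385 listed repeat copies, chosen by name. No listed copy has a value of 0 in any of the 9 libraries, so copies silent in any library are not covered. Poly(A) RNA was sequenced from 3 lines at days 0, 2 and 4 of differentiation, with 1 library for each of the 9 combinations of line and day. The lines were wild-type (WT) J1 ESCs, 1KO ESCs, in which both alleles of *Dnmt1* are disrupted, and 1KO+1CI ESCs, made from the 1KO line with a transgene for catalytically inactive DNMT1 under the CAG promoter. Day 0 cells were undifferentiated ESCs grown on mitotically inactive mouse embryonic fibroblasts with serum and LIF, and the later days followed removal of the feeders and of LIF. The deposited columns of this line are named CI6. They were taken as 1KO+1CI because it is the only transgenic sample of each day, and what the number stands for, such as 1 of the clones made, is not given in the sources used here. Since each condition was sequenced once, the values carry no replicate error, and differences within a day are given without a test. The lines alone were tested, with the days as blocks.

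An IAP element carries a long terminal repeat (LTR) at each end, and its internal part holds the gag, pro and pol genes. Transcription starts in the 5′ LTR and runs through the internal part, so that RNA over an IAPEz-int copy can come from its own LTR or from transcription that enters from outside. IAPs are among the youngest and most active retrotransposons of the mouse, and insertions differ between strains. In ESCs they are known to be held silent by TRIM28 and SETDB1, which place H3K9 trimethylation, and by DNA methylation, which DNMT1 copies to the new strand after replication. Copies of this family are so alike in sequence that many reads align to more than 1 of them.

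The table numbers the copies from dup1 to dup574 and gives no position for them, so no genomic sequence, neighbouring gene or strand is shown. Each value is an FPKM, a count of reads divided by the length of the copy and by the depth of the library. For each of the 426 copies, the 9 FPKM values were whole multiples of a single step, within the rounding of the table. Taking a step as 1 read, the libraries hold 20400000 to 28100000 reads, and the step also gives the length by which the authors divided. This implied length ranged from 473 to 6842 bases with a median of 1715 (quartiles 1373 and 2197). It was under 1000 bases for 32 copies, from 1000 to 3000 for 362, from 3000 to 5000 for 29 and 5000 or more for 3. The median copy had 15, 20 and 12 reads in WT cells at days 0, 2 and 4, against 333, 157 and 637.5 in 1KO cells and 85.5, 157 and 798.5 in 1KO+1CI cells. Every listed copy had at least 1 read in every library. A rank among copies is thus less certain in WT than in the other lines, and the intervals of ratios given below cover counting error only. The sources used here do not say how the authors treated reads with more than 1 alignment, and what a copy transcribed cannot be told apart from reads that belong to a near-identical copy.

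Facts of the libraries that bear on the copies are as follows. For *Dnmt1*, the 3 days had 74.0, 80.4 and 48.5 FPKM in WT, 13.7, 17.4 and 12.3 in 1KO, and 315, 129 and 158 in 1KO+1CI cells. The pluripotency genes *Pou5f1*, *Nanog*, *Sox2*, *Zfp42* and *Esrrb* were all at 96.5 FPKM or more in WT cells at day 0. Feeder fibroblast genes (6 of the 7 chosen were in the table, none at 0) summed at day 0 to 89.3 FPKM in WT ESCs, 173 in the 1KO and 196 in the 1KO+1CI line, and to between 11.1 and 25.5 FPKM in the 6 later libraries. Primitive streak genes (4 of 5 in the table) summed at day 4 to 14.5 FPKM in WT cells, 74.1 in the 1KO and 87.1 in the 1KO+1CI line, and primitive endoderm genes (7 of 7) to 55.6, 71.5 and 118. Most of the endoderm sum was *Col4a1* (19.3, 24.5 and 46.7 FPKM) and *Lamb1* (33.5, 41.9 and 62.7 FPKM). Of the endoderm genes, only *Foxa2* had a log2(FPKM + 1) difference over 1 between 1KO and WT cells at day 4. *Gata4* alone was lower in 1KO cells, at 1.56, 0.96 and 2.12 FPKM in the 3 lines. These sums of gene sets moved with some of the differences between copies given below, and their part in them was not tested.

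**Figure D1:**
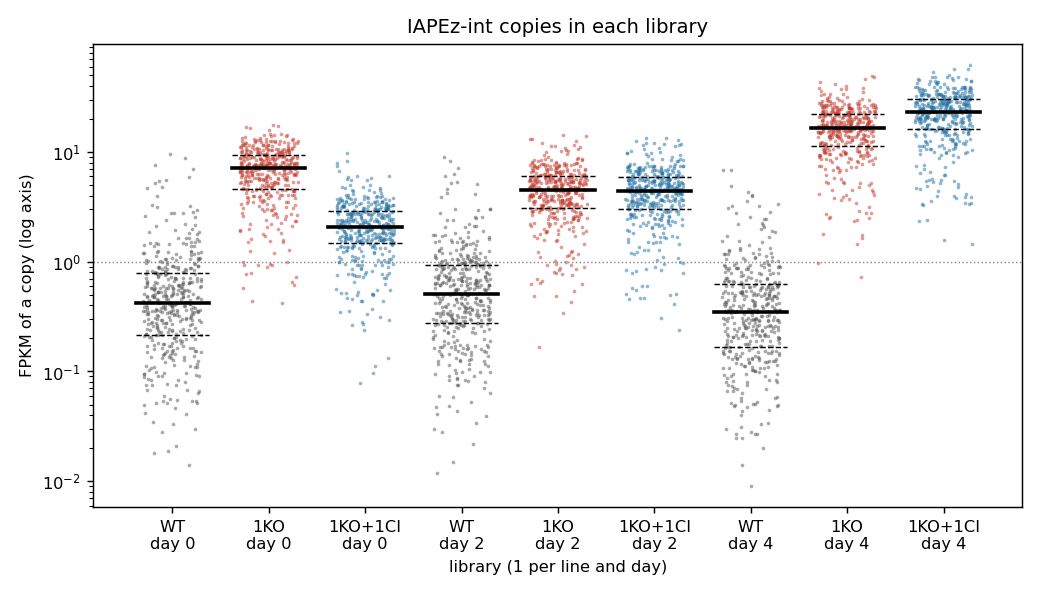
Each point is 1 of the 426 IAPEz-int copies, with its FPKM on a log axis, in each of the 9 libraries. Thick lines are medians over copies, dashed lines quartiles, and the dotted line 1 FPKM. The medians lie between 0.346 and 0.512 FPKM in the 3 WT libraries and between 2.09 and 23.3 in the 6 others.

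In WT cells most copies were nearly silent and a few carried much of the RNA. At day 0 the copies ranged from 0.014 to 9.54 FPKM with a median of 0.417, and 74 of 426 reached 1 FPKM. The count was 89 at day 2 and 51 at day 4, with medians of 0.512 and 0.346 FPKM. The 10 highest copies held 20.9%, 18.2% and 18.5% of the summed FPKM over the days. In WT cells, 58 copies at day 0, 70 at day 2 and 62 at day 4 were enough to reach 50% of the sum.

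In 1KO cells nearly all listed copies reached 1 FPKM and the copies were more alike. At day 0 they ranged from 0.425 to 17.5 FPKM with a median of 7.12, and 412 reached 1 FPKM. At day 2 the median was 4.53 FPKM and 404 copies reached 1 FPKM, and at day 4 the median was 16.7 FPKM and 424 copies did. The 10 highest copies held between 5.13% and 6.23% of the sum at the 3 days, and 135 to 140 copies were needed to reach 50%. The ratio of the upper to the lower quartile was 2.04 at day 0 in 1KO ESCs and 3.65 in WT ESCs, a WT spread that includes more counting error.

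In 1KO+1CI cells the level depended most on the day. Over days 0, 2 and 4 the median copy went through 2.09, 4.44 and 23.3 FPKM, with ranges of 0.079 to 9.85, 0.237 to 13.5 and 1.44 to 62.0 FPKM. The number of copies at 1 FPKM or more was 364, 404 and 426. The 10 highest copies held 7.24%, 6.28% and 5.22% of the sum.

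Differences between libraries were taken per copy in log2(FPKM + 1), so that a change within values below 1 FPKM counts little. Between 1KO and WT cells, the median differences at days 0, 2 and 4 were 2.36, 1.75 and 3.59, with quartiles of 1.78 and 2.77, 1.36 and 2.05, and 3.13 and 3.94. A difference over 1 was found for 397 copies at day 0, where 4.9% of all listed repeat copies had one, for 368 at day 2 (5.74% of all copies) and for 424 at day 4 (6.77%). The direction was nearly without exception. At days 0 and 4 the 1KO value was above the WT value for all 426 copies, and at day 2 for 425, the exception being dup410, described with the low copies below. The median over the 37959 copies of other families was −0.10, −0.06 and −0.01 at the 3 days. Since most WT values are below 1 FPKM, the added 1 FPKM narrows these differences. With 0.1 FPKM added instead, their medians were 3.65, 2.80 and 5.08, and the median ratio of FPKM itself was 16.0, 8.62 and 45.8. Over the 32 copies of at least 3000 bases the medians were lower, 1.61, 0.98 and 2.62.

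The copies differed widely in how much higher they were. The largest difference at day 0, 3.69, belonged to dup227, which was at 0.103 FPKM in WT and 13.3 FPKM in 1KO ESCs, on 5 and 879 reads. Its FPKM ratio was 129, and these reads give it an interval of 54.9 to 397 (95%, exact binomial, Clopper-Pearson, as for all ratios here). Next came dup103, at 0.298 and 13.8 FPKM (difference 3.51), and dup140, at 0.220 and 12.2 FPKM (3.44). None of these 3 copies was among the 200 highest in WT ESCs, and all 3 were among the 33 highest in 1KO ESCs. At day 4 the largest differences were 5.24 for dup103, 4.97 for dup104 and 4.72 for dup574. The smallest at day 0 were 0.17 for dup157, 0.24 for dup493 and 0.31 for dup410, and at day 4 0.62 for dup410, 0.77 for dup553 and 1.12 for dup327. Of these 5 copies, dup157 was one of the highest in WT cells and the other 4 were among the lowest in 1KO ESCs.

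Between 1KO+1CI and 1KO cells, the copies moved almost as 1 block at days 0 and 4, in opposite directions, and had no common direction at day 2. At day 0 the median difference was −1.32 (quartiles −1.51 and −1.09), and 344 copies were under −1, against 3.69% of all listed copies. No copy was higher. At day 2 the median was −0.03 (quartiles −0.16 and 0.13), with 189 copies higher and 237 lower, and at day 4 it was 0.45 (0.34 and 0.52). At neither day did any IAPEz-int copy differ by more than 1 in either direction, while 7.56% of all listed copies did at day 2 and 7.6% at day 4. At day 4 the exceptions were dup470, dup428, dup327, dup157 and dup39, whose 1KO+1CI value was below that of 1KO cells by 0.16 or less, and the other 421 were higher. The ratio of dup470 was 0.87 on 64 and 82 reads, with an interval of 0.62 to 1.22 that includes 1, and those of the other 4 also included 1. For this comparison the median over the copies of other families was 0.087, −0.006 and −0.004 at days 0, 2 and 4.

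At day 0 the deepest differences between 1KO+1CI and 1KO ESCs were −2.08 for dup75, −1.99 for dup98 and −1.89 for dup227. dup75 had 9.45 FPKM without and 1.48 with the transgene, a ratio of 0.16 (interval 0.11 to 0.22). The smallest were −0.10 for dup493, −0.15 for dup410 and −0.17 for dup327, all of them copies under 1 FPKM in both libraries. At day 4 the largest were 0.87 for dup222, at 24.7 FPKM without and 46.0 with the transgene, 0.80 for dup355 and 0.75 for dup410. The ratio of dup222 was 1.87 (interval 1.72 to 2.03), and that of dup410, on 22 and 47 reads, was 2.39 (1.41 to 4.16).

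Set against WT cells, 1KO+1CI cells had median differences of 1.00, 1.73 and 4.06 at days 0, 2 and 4. With 0.1 FPKM added in place of 1 FPKM these were 1.92, 2.78 and 5.52, over the 32 long copies they were 0.61, 0.94 and 3.04, and the median ratio of FPKM was 4.55, 8.42 and 63.5. A difference over 1 was found for 211 copies at day 0 (5.37% of all listed copies), 366 at day 2 (6.03%) and 426 at day 4 (6.81%). The excess over WT in FPKM was compared copy by copy. In 1KO+1CI ESCs at day 0 it was 24.0% of the excess in 1KO ESCs for the median copy, with quartiles of 19.9% and 28.8%. At day 2 this share was 97.3% (84.5% and 113%, over the 425 copies with an excess in 1KO) and at day 4 140% (130% and 148%). At day 0, 9 copies were lower in 1KO+1CI than in WT ESCs. These were dup15, dup428, dup73, dup483, dup157, dup129, dup128, dup400 and dup457, by 0.20 to 0.02, and 7 of the 9 had at least 1 FPKM in 1KO+1CI ESCs and all but dup457 had it in WT ESCs. Their ratios to WT lay between 0.78 and 0.96, and each interval included 1. At day 2 dup74 was the only copy lower than in WT, at 7.22 FPKM in WT and 6.34 in 1KO+1CI cells.

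To set the lines against each other over all 3 days, limma was fitted to log2(FPKM + 1) of all listed repeat copies with terms for line and day, which leaves 4 residual degrees of freedom. This test was chosen after the data were seen. The days are not replicates of a line, and any difference between lines that changes with the day counts as error. Against WT, 309 of the 426 copies were higher in 1KO cells (limma, adjusted p under 0.05 over all copies), where 1.12% of all listed copies were called higher, and none was lower. The smallest adjusted p in limma belonged to dup104, 0.0147, with a difference of 3.75 ± 0.47 (SE), and dup157, with 0.81 ± 0.36, had an adjusted p of 0.51. In 1KO+1CI cells 178 copies were higher than in WT (0.727% of all copies called higher) and none was lower. Between 1KO+1CI and 1KO cells limma called none of the 426 copies, and none had an unadjusted p under 0.05, where 0.00521% of all copies were called in either direction. This comparison had opposite directions at days 0 and 4. These calls fell in number when a day was left out, which also leaves 2 residual degrees of freedom in place of 4. For 1KO against WT they numbered 0 without day 0, 222 without day 2 and 0 without day 4, and for 1KO+1CI against WT 4, 0 and 0. The median limma difference over the copies in these fits was 2.68, 2.97 and 2.08 for 1KO against WT. For 1KO+1CI against WT it was 2.90, 2.55 and 1.39.

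The 3 lines followed different courses over the days. In 1KO cells, 402 copies had the order day 2, day 0, day 4 from lowest to highest, and the other 24 were higher at each later day. The median difference from day 0 was −0.54 at day 2, where 10 copies were under −1 (3.6% of all listed copies), and 1.12 at day 4, where 317 were over 1 (7.7%). In 1KO+1CI cells, 425 copies were higher at each later day, and dup470 alone was lower at day 2, on 8 reads against 15. The median difference from day 0 was 0.77 at day 2, with 66 copies over 1 (7.51% of all copies), and 2.90 at day 4, with all 426 over 1 (7.28%). In WT cells each of the 6 possible orders occurred, the commonest in 152 copies, and the median differences were 0.04 at day 2 and −0.09 at day 4. The other families had medians of 0.19 and 0.06 in 1KO, 0.11 and −0.06 in 1KO+1CI and 0.12 and −0.02 in WT cells, so that other repeats were slightly higher at day 2 than at day 0 in each line.

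**Figure D2:**
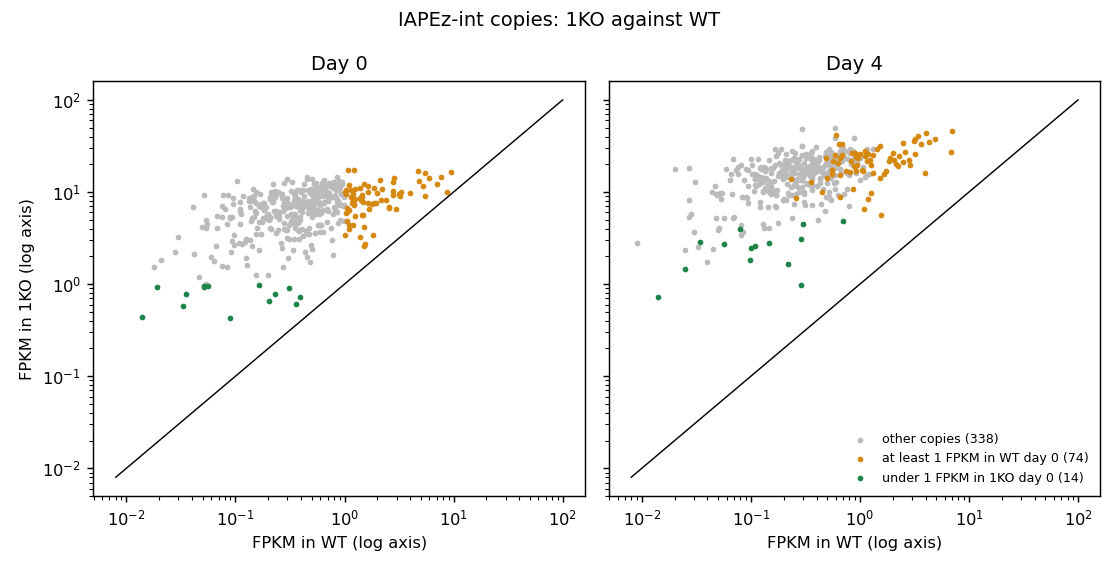
FPKM of each IAPEz-int copy in 1KO (vertical) against WT cells (horizontal) at days 0 and 4, both axes log, with the line of equal values. Orange marks the 74 copies with at least 1 FPKM in WT at day 0 and green the 14 with under 1 FPKM in 1KO at day 0. All copies lie above the line at both days.

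The copies expressed in WT ESCs were those with at least 1 FPKM in the day 0 library. Of these 74, 58 also reached 1 FPKM in WT cells at day 2, which is 78.4% of the day 0 copies and 65.2% of the 89 copies at day 2, and 43 did at day 4, 58.1% of the day 0 and 84.3% of the 51 day 4 copies. All 3 days were passed by 41 copies, and 317 passed at none. The 74 copies were on median at 1.54 FPKM at day 2 and 1.14 at day 4 in WT cells, where the other 352 were at 0.401 and 0.274. With a limit of 0.5 FPKM the class held 185 copies and with 2 FPKM it held 25.

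The highest was dup197, at 9.54, 8.94 and 6.91 FPKM at the 3 days in WT cells, rank 1 each time. In 1KO cells it was at 16.5, 14.4 and 46.0 FPKM and in 1KO+1CI cells at 9.85, 13.5 and 48.4. Its FPKM in 1KO ESCs was thus 1.74 times that in WT ESCs (interval 1.51 to 2.00), and in 1KO+1CI ESCs 1.03 times (0.88 to 1.21). The second, dup157, was at 8.76, 8.20 and 6.80 FPKM in WT, 9.94, 11.2 and 27.4 in 1KO, and 7.87, 11.8 and 27.1 in 1KO+1CI cells. At day 0 it was the copy least different between 1KO and WT ESCs, with a ratio of 1.14 whose interval, 0.96 to 1.35, includes 1, and its rank went from 2 in WT to 91 in 1KO ESCs. The third, dup193, was at 7.59, 6.28 and 4.91 FPKM in WT cells, and its ratio of 1KO to WT ESCs was 1.90 (1.66 to 2.19). These 3 copies were also the 3 highest of the 1KO+1CI day 0 library.

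Since a class chosen on a low and noisy WT value would lean towards a small difference in the same library, the class was chosen again on the WT day 2 library and read at days 0 and 4. This choice was made after the data were seen. The 89 copies with at least 1 FPKM at day 2 had day 0 medians of 1.25 FPKM in WT ESCs, 9.04 in the 1KO and 3.21 in the 1KO+1CI line, and the 337 others had 0.346, 6.51 and 1.85. On the log2(FPKM + 1) scale the difference between 1KO and WT ESCs had a median of 1.92 in the first and 2.45 in the second set. In FPKM the excess of 1KO over WT was 6.87 (quartiles 5.58 and 9.32) and 6.04 (3.90 and 8.35) at day 0, and 20.9 (16.3 and 24.7) and 15.2 (10.1 and 19.9) at day 4. Over all 426 copies, the WT day 2 FPKM had a Spearman's rho of −0.06 with the day 0 difference on the log2(FPKM + 1) scale, close to no relation across the family. The WT day 2 FPKM and the excess of 1KO over WT had a Spearman's rho of 0.35 at day 0 and 0.53 at day 4. These are descriptions across copies of 1 family that may share reads. The median excess of 1KO+1CI over WT ESCs at day 0 was 1.53 FPKM in the 89 and 1.46 in the 337 copies.

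**Figure D3:**
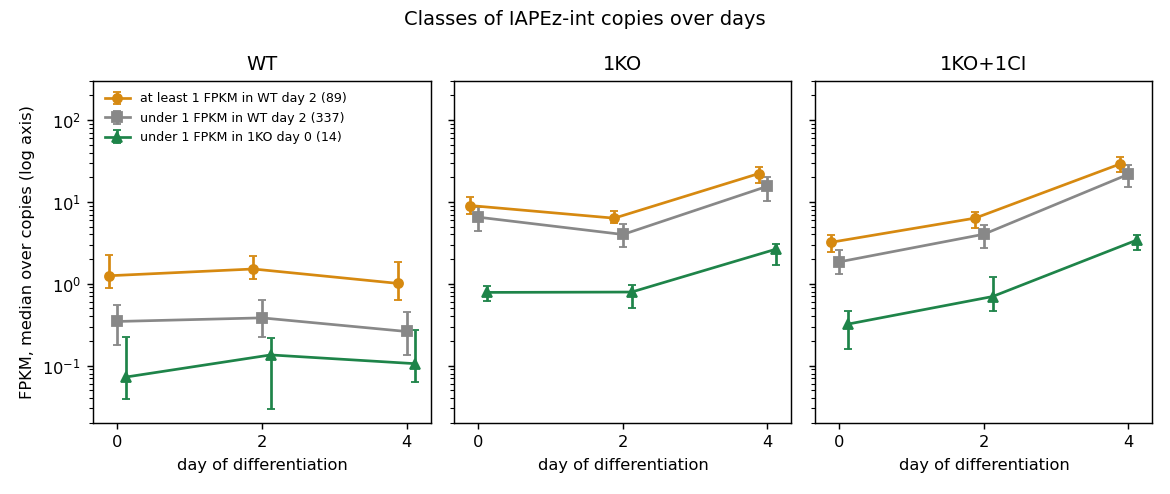
Median FPKM over copies (points, log axis) with quartiles (bars) at each day in WT, 1KO and 1KO+1CI cells, for the 89 copies with at least 1 FPKM in WT day 2, the 337 others, and the 14 copies with under 1 FPKM in 1KO day 0. The first 2 sets are separated by the choice in the WT day 2 library. In the mutant lines the 89 copies have the higher median at every day. At day 0 it is 9.04 against 6.51 FPKM in 1KO and 3.21 against 1.85 in 1KO+1CI ESCs. The 14 copies stay lower in all libraries.

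Few of the listed copies stayed low without DNMT1, and copies with no reads in 1KO cells are not listed. In 1KO ESCs at day 0, 14 of 426 copies were under 1 FPKM, namely dup327, dup408, dup410, dup411, dup432, dup473, dup484, dup485, dup493, dup494, dup505, dup519, dup542 and dup553. They lay between 0.425 and 0.990 FPKM, on a median of 54 reads. Of these 14 copies, 10 were also under 1 FPKM at day 2 and 2, dup410 and dup553, also at day 4. All 426 listed copies included 22 such copies at day 2 and 2 at day 4. In 1KO+1CI cells all 14 were under 1 FPKM at day 0, where 62 of the 426 copies were and every copy was lower than in 1KO ESCs. At day 4 all 14, like all 426 copies, were above 1 FPKM, and the 14 had a median of 3.43 FPKM. Although low, every one of them was above its WT value in 1KO ESCs, as were all 426 copies. The 14 had medians of 0.784 FPKM in 1KO and 0.0725 FPKM in WT ESCs. At day 4 they were at 0.731 to 4.83 FPKM in 1KO cells (median 2.65), against a family median of 16.7. With a limit of 0.5 FPKM only dup327 and dup553 remained, and with 2 FPKM there were 30 copies.

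The 3 lowest copies in 1KO ESCs were dup327, dup553 and dup505. dup327 was at 0.425, 0.434 and 1.65 FPKM in 1KO cells at days 0, 2 and 4, at 0.089, 0.188 and 0.218 in WT cells and at 0.269, 0.6 and 1.58 in 1KO+1CI cells. dup553, whose implied length of 6842 bases was the longest of all, was at 0.442, 0.166 and 0.731 FPKM in 1KO, 0.014, 0.012 and 0.014 in WT, and 0.079, 0.307 and 1.44 in 1KO+1CI cells. It was the lowest copy in 6 of the 9 libraries and the second lowest in the other 3. Because of its length the 1KO day 0 value rests on 85 reads, and the WT values on 2 each. Its ratio of 1KO to WT at day 4 was 52.2, with an interval of 14.1 to 436. dup505 was at 0.578, 0.621 and 1.80 FPKM in 1KO and 0.033, 0.028 and 0.099 in WT cells.

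The one copy that was not higher in 1KO cells at day 2 was dup410, at 1.45 FPKM in WT and 0.812 in 1KO cells, on 35 and 17 reads. The ratio of 0.56 had an interval of 0.29 to 1.03, which includes 1. In WT cells it was at 0.391 FPKM at day 0 and 0.288 at day 4. In 1KO cells it was at 0.719, 0.812 and 0.976 FPKM over the days, the smallest difference between day 4 and day 0 of any copy (0.20), and in 1KO+1CI cells at 0.549, 1.51 and 2.33.

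**Figure D4:**
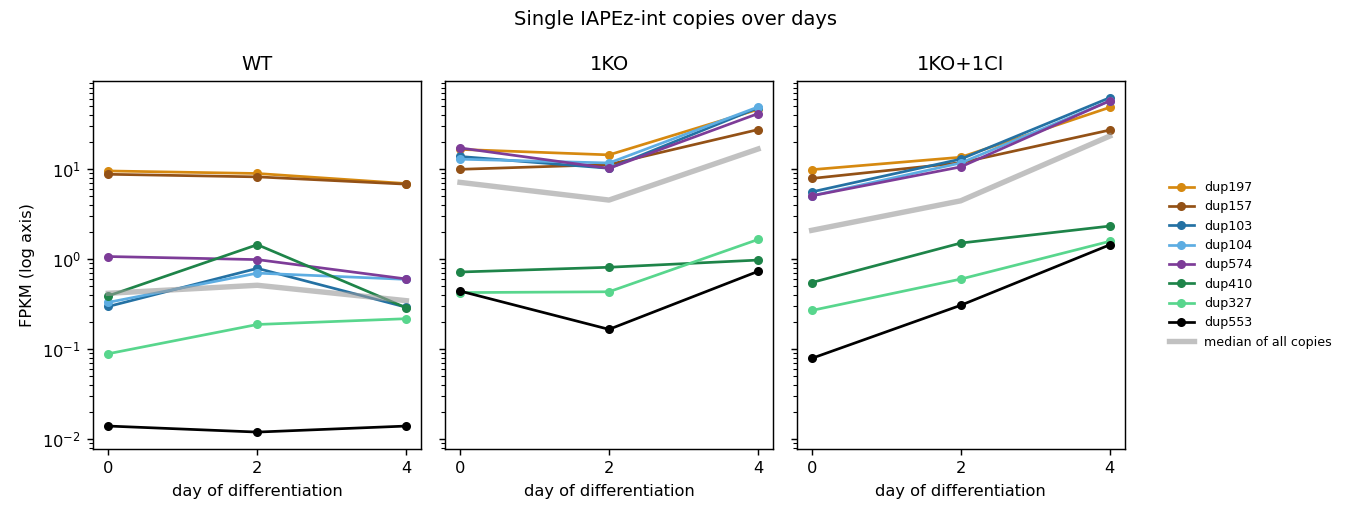
FPKM (log axis) of 8 named copies at days 0, 2 and 4 in WT, 1KO and 1KO+1CI cells, with the median of all 426 copies in grey. dup197 and dup157 are the highest in WT and lie above the median in all 9 libraries, dup103, dup104 and dup574 are near or below 1 FPKM in WT and among the highest in the mutant lines at day 4, and dup410, dup327 and dup553 are low in the mutant lines.

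The highest copies of the mutant lines were in part other copies than those of WT cells. In 1KO ESCs the highest were dup217 (17.5 FPKM, against 1.23 in WT), dup574 (17.2 against 1.07) and dup192 (16.9 against 4.74). At day 4 the highest in 1KO cells was dup104, at 48.9 FPKM, and in 1KO+1CI cells dup103, at 62.0 FPKM. dup104 was at 0.331, 0.699 and 0.596 FPKM in WT cells at the 3 days and dup103 at 0.298, 0.790 and 0.292, which put them at ranks from 113 to 277 of 426 in the WT libraries. In 1KO+1CI cells both were at rank 13 or higher at every day. dup574, with an implied length of 3396 bases, was at 17.2, 10.2 and 41.3 FPKM in 1KO, 5.05, 10.6 and 57.2 in 1KO+1CI, and 1.07, 0.988 and 0.602 in WT cells. It drew the most reads of any copy in the 1KO and 1KO+1CI libraries, up to 3965.

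Ranks of the copies agreed closely within the mutant lines, less well within WT cells, and least between WT and mutant cells. Spearman's rho over the 426 copies was between 0.77 and 0.81 for the 3 pairs of WT days. For the 15 pairs among the 1KO and 1KO+1CI libraries it was between 0.88 and 0.98, with a median of 0.92. For the 18 pairs of a WT with a mutant library it was between 0.47 and 0.64, with a median of 0.59. The closest pair was 1KO with 1KO+1CI at day 4 (0.98), and the 1KO day 0 ranks agreed better with 1KO+1CI at day 4 (0.96) than with 1KO+1CI at day 0 (0.88). At day 0, WT ranks had a rho of 0.48 with 1KO and 0.63 with 1KO+1CI. These values describe copies within single libraries, which share reads, lengths and depth.

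**Figure D5:**
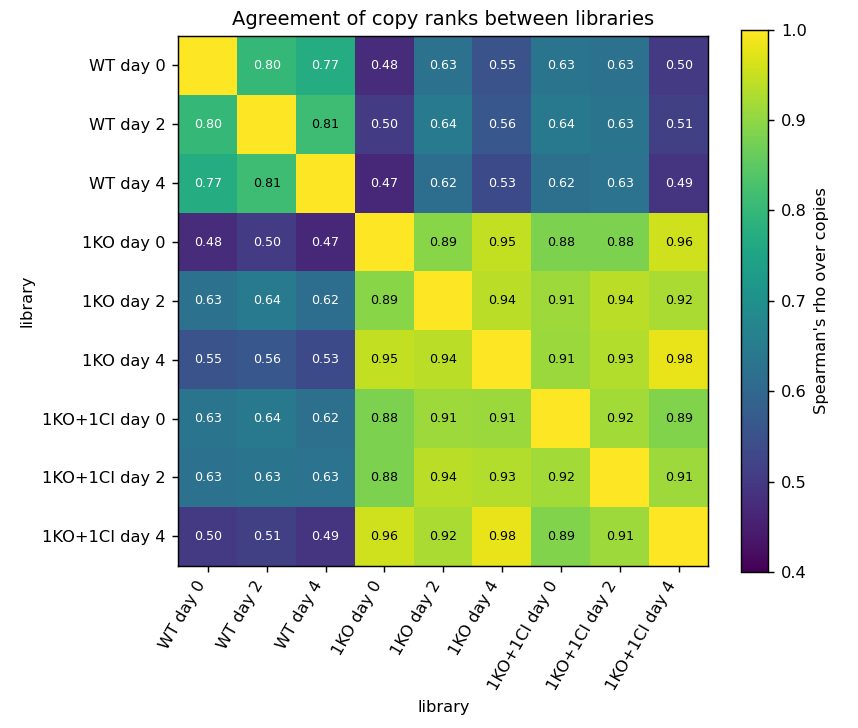
Spearman's rho of FPKM over the 426 copies for each of the 36 pairs of libraries, as colour and number. The block of the 6 mutant libraries lies between 0.88 and 0.98, the WT block between 0.77 and 0.81, and WT with mutant libraries between 0.47 and 0.64.

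The number of reads per copy differs between these blocks. Restricted to the 219 copies with at least 10 reads in all 9 libraries, the median rho was 0.79 for WT pairs, 0.45 for WT with mutant pairs and 0.89 among mutant pairs, and with the implied length held constant by partial rank correlation the medians were 0.80, 0.58 and 0.91. The top of the lists showed the same. Of the 20 highest copies in WT at day 0, 18 were among the 20 highest at day 2 and 17 at day 4, 15 in 1KO+1CI ESCs and 8 in 1KO ESCs, where their median rank was 62 and the lowest 237. Of the 20 highest in 1KO ESCs, 13 were among the 20 highest in 1KO cells at day 4 and 12 in 1KO+1CI ESCs. The lowest copies in WT were less stable, with 8 of 20 shared between days 0 and 2, where the fewest reads of any copy in each WT library were 1. Of the 20 lowest copies in 1KO ESCs, 16 were among the 20 lowest in 1KO cells at day 4.

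The per-copy difference between 1KO and WT cells ranked the copies alike at each day. Between pairs of days, which share no library, rho was 0.80 for days 0 and 2, 0.86 for days 0 and 4 and 0.85 for days 2 and 4. Since most WT values are below 1 FPKM, this difference depends largely on the 1KO value. The 1KO FPKM itself had a rho of 0.89, 0.95 and 0.94 for these pairs of days, so the agreement is not separate from that of the 1KO ranks. For 1KO+1CI against 1KO cells, where the differences were narrow, rho was 0.05, −0.37 and −0.03. Copies with the deepest differences at day 0 thus tended to have the larger positive ones at day 4. The added 1 FPKM narrows the differences of low copies at both days. The 14 copies under 1 FPKM in 1KO day 0 had medians of −0.43 at day 0 and 0.33 at day 4. The 412 others had −1.34 and 0.45. The part of the level in this rho was not tested.

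The implied length had little relation to the level of a copy, with a rho between −0.06 and −0.14 in the 9 libraries, but the longest copies were lower. The 29 copies of 3000 to 5000 bases had medians of 3.23 FPKM in 1KO ESCs and 7.31 at day 4, and the 3 copies of 5000 bases and over 1.53 and 2.81, against 7.50 and 17.1 for the 362 copies of 1000 to 3000 bases. The 32 copies under 1000 bases were at 5.44 and 15.1 FPKM. dup574 stands out among the long copies as one of the highest.

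The number of a copy in the table was more closely related to its level. The rho of number with FPKM was between −0.18 and −0.25 in the WT and between −0.45 and −0.54 in the mutant libraries. The 195 listed copies numbered 1 to 200 had a median of 8.20 FPKM in 1KO ESCs, the 174 numbered above 200 and up to 400 had 7.05, and the 57 with higher numbers had 1.99. In 1KO cells at day 4 the medians were 19.2, 16.2 and 5.20 FPKM. Of the 14 low copies, 13 had a number over 400, and of the 74 copies expressed in WT ESCs 7 did. The sources used here do not say what the number stands for.

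The 2 IAP LTR families read beside it differed from each other. IAPLTR1_Mm, with 76 copies and an implied length of 394 bases on median, was at 0.831, 8.92 and 2.35 FPKM in WT, 1KO and 1KO+1CI ESCs, and its median differences were 2.07 for 1KO against WT and −1.44 for 1KO+1CI against 1KO, close to 2.36 and −1.32 for IAPEz-int. At day 4 these were 3.24 and 0.33, against 3.59 and 0.45. The rank agreement of IAPLTR1_Mm copies between WT and 1KO ESCs was 0.40 and that between 1KO cells at days 0 and 4 was 0.81, against 0.48 and 0.95 for IAPEz-int. IAPLTR1a_Mm (25 copies) was lower, at 0.268, 2.63 and 0.592 FPKM in the 3 ESC lines, with differences of 1.40 and −1.25 at day 0 and 2.20 and 0.29 at day 4. Its rank agreement between WT and 1KO ESCs was −0.16. MMERVK10C-int, another ERVK internal part (92 copies), had differences of 0.19 and −0.02 at day 0 and 0.40 and 0.27 at day 4. MERVL-int (169 copies), an ERVL internal part that is active in cells like those of the 2-cell embryo, had 0.49 and 0.29 at day 0 and 0.60 and −0.14 at day 4. For MERVL-int the copy ranks of WT and 1KO ESCs had a rho of 0.83. None of these differences between families was tested.

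Genes known to silence IAPs or to set DNA methylation were read in the same libraries, as differences in log2(FPKM + 1). All 28 chosen genes were in the table, among them *Trim28*, *Setdb1*, *Uhrf1*, *Hells*, *Atrx* and *Resf1*. Past 1 or −1 between 1KO and WT cells were 2 of the 28 at day 0 (*Dnmt3l*, higher, and *Dnmt1*, lower), 1 at day 2 (*Dnmt1*) and 2 at day 4 (*Dnmt1* and *Dnmt3a*, both lower). Among all 15074 genes the shares past either limit were 3.79%, 2.26% and 2.26% at days 0, 2 and 4. With against without the transgene the only one was *Dnmt1*, at each day, where 0.418%, 0.338% and 0.915% of all genes were past either limit. *Dnmt1* is the gene disrupted in the 1KO line and carried by the transgene, so its place in these counts follows from how the lines were made. *Dnmt3l*, a cofactor of the de novo methyltransferases, was at 41.3 FPKM in WT and 203 in 1KO ESCs. *Dnmt3a*, a de novo methyltransferase, was at 39.7 FPKM in WT and 18.3 in 1KO cells at day 4. *Trim28* was at 453, 679 and 588 FPKM and *Setdb1* at 26.3, 34.2 and 32.5 in WT, 1KO and 1KO+1CI ESCs. At day 4 they were at 414, 384 and 428 FPKM and at 24.7, 23.4 and 24.3.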

How the data were processed

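The members and gene lists were chosen with earlier results of these data known. The deposited FPKM values of repeat copies and genes were used as they stand. The authors made them with Trim Galore, HISAT2 (genome build mm10), SAMtools and the analyzeRepeats.pl program of HOMER, 1 value per copy and library. The sources used here give no versions or strand setting. From the gene table, 21 entries that name no gene or a date were left out, and no value in the repeat table is 0.

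Relative depth was read from steps in the values, and absolute depth from 1850 genes with 1 annotated transcript (GENCODE M21), of which 1053 gave a step and 582 lay near the most frequent depth. A step had to hold in all 9 libraries within 0.00052 FPKM plus 0.0003%. Implied lengths are approximate, and whether a step is 1 read or 1 pair is not known.

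Copies named are the 3 highest of each day 0 library, the 3 lowest in 1KO day 0, at days 0 and 4 the 3 largest and smallest differences between 1KO and WT and between the mutant lines, the highest and lowest of the mutant lines at day 4, and up to 10 that go against the others. The 14 low copies are listed beyond this rule. Python 3.11.15, numpy 2.4.6, pandas 2.3.3, scipy 1.17.1, matplotlib 3.10.9 and limma 3.58.1 (lines with day as a block, trend in the variance, Benjamini-Hochberg adjustment over all 38385 copies) were used, and read recovery, medians and the limma fit were tested on simulated data. For limma the simulated line difference was the same at all days, so the fit was not tested on differences that change with the day, as these do. Alternatives were pseudocounts, scalings, limits, and minimum reads and lengths.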

Additional observations from a re-analysis of the deposited data

Results flagged for a closer look

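Between 1KO+1CI and 1KO cells the median difference over the 426 IAPEz-int copies was −1.32 at day 0, with 426 copies lower, and 0.45 at day 4, with 421 higher. The 2 days moved in opposite directions. The difference between the days was not tested, since each condition has 1 library.

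From day 0 to day 2 the median difference was −0.54 in 1KO cells, with 402 copies lower, and 0.77 in 1KO+1CI cells, with 425 higher. This difference between the lines was not tested either. Groups of 1 library could not be searched for a library that stands apart from the others of its group.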

How the results depend on the processing

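Each line and day has 1 library and the labels carry no replicate numbers, so no replicate could be paired or left out, and lines were paired by day alone, in the limma fit with day as a block. There the 309 copies called for 1KO against WT became 364 and 370 with pseudocounts of 0.1 and 0.01 FPKM and 0, 222 and 0 without days 0, 2 and 4, the 178 for 1KO+1CI against WT became 321, 327, 4, 0 and 0, and the count for 1KO+1CI against 1KO was 0 in each, with 23 copies at an unadjusted p under 0.05 without day 4 and 0 otherwise. A fit without 1 of the days has 2 residual degrees of freedom. The 15 median differences were recomputed under 7 settings, which gives 105 values. The sign stayed in 104, and 42 stayed within the exact binomial 95% interval of the median over copies. That interval takes the copies as independent, although they may share reads, and holds no error between libraries. It serves only as a scale for the shifts. The exception in sign was WT day 2 against day 0, 0.04 as reported and −0.023 after scaling to the other repeat copies, whose day 2 libraries had factors of 1.18 to 1.20 and whose 1KO day 0 library had 0.911. Values below are given at days 0, 2 and 4. With a pseudocount of 0.1 FPKM they were 3.65, 2.80 and 5.08 for 1KO against WT, −1.68, −0.03 and 0.47 for 1KO+1CI against 1KO and 1.92, 2.78 and 5.52 for 1KO+1CI against WT, and for days 2 and 4 against day 0 0.097 and −0.26 for WT, −0.65 and 1.23 for 1KO and 1.02 and 3.37 for 1KO+1CI. With 0.01 FPKM they were 3.96, 3.08 and 5.44 for 1KO against WT, −1.72, −0.031 and 0.47 for 1KO+1CI against 1KO and 2.16, 3.03 and 5.92 for 1KO+1CI against WT, and for days 2 and 4 against day 0 0.11 and −0.32 for WT, −0.66 and 1.24 for 1KO and 1.06 and 3.44 for 1KO+1CI. Scaled to other repeat copies they were 2.48, 1.64 and 3.60 for 1KO against WT, −1.46, −0.029 and 0.50 for 1KO+1CI against 1KO and 0.99, 1.62 and 4.12 for 1KO+1CI against WT, and for days 2 and 4 against day 0 −0.023 and −0.051 for WT, −0.84 and 1.04 for 1KO and 0.60 and 3.01 for 1KO+1CI. As differences between library medians they were 2.52, 1.87 and 3.72 for 1KO against WT, −1.40, −0.023 and 0.45 for 1KO+1CI against 1KO and 1.12, 1.85 and 4.17 for 1KO+1CI against WT, and for days 2 and 4 against day 0 0.094 and −0.075 for WT, −0.55 and 1.13 for 1KO and 0.82 and 2.97 for 1KO+1CI. Over the 32 copies of at least 3000 bases they were 1.61, 0.98 and 2.62 for 1KO against WT, −1.08, −0.012 and 0.43 for 1KO+1CI against 1KO and 0.61, 0.94 and 3.04 for 1KO+1CI against WT, and for days 2 and 4 against day 0 0.019 and −0.084 for WT, −0.57 and 0.99 for 1KO and 0.50 and 2.47 for 1KO+1CI. Scaling by genes moved only 1KO+1CI day 2 against day 0 beyond the interval, to 0.73, and a minimum of 10 reads only WT day 4 against day 0, to −0.12.

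The 74 copies expressed in WT ESCs became 185 at a limit of 0.5 FPKM, 25 at 2 FPKM, 41 when all 3 days had to pass and 5 among copies of at least 3000 bases, and the 14 copies low in 1KO ESCs became 2, 30, 2 and 4. Scaling by genes gave 72 and 15. At limits of 0.5 and 2 FPKM the count of copies was 218 and 27 in WT cells at day 2 and 145 and 20 at day 4, and 227 reached 2 FPKM in 1KO+1CI ESCs. As a share of reads instead of FPKM, the 10 highest copies held 18.5%, 16.2% and 17.1% in WT, 6.97%, 6.87% and 6.76% in 1KO and 7.00% and 6.69% in 1KO+1CI cells at days 2 and 4. For ranks, the median rho became 0.45 (WT with mutant) and 0.89 (among mutant libraries) with at least 10 reads, 0.85 (WT), 0.77 and 0.95 over the 32 long copies, and Pearson's r of log2(FPKM + 1) between WT libraries was 0.90. Low read counts limit the WT values most, since 138, 81 and 175 of 426 copies had fewer than 10 reads at days 0, 2 and 4. The cause of these shifts was not tested.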

Other observations

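Copies with neighbouring numbers in the table had like levels in the mutant lines. Over the 378 pairs of listed copies whose numbers differ by 1, the rho of their FPKM was 0.49 in 1KO, 0.42 in 1KO+1CI and 0.10 in WT ESCs at day 0, and 0.45, 0.48 and 0.20 at day 4. Over the 338 pairs whose numbers differ by 50 it was 0.30, 0.24 and −0.04 at day 0. The pairs share their library and overlap with each other. dup103 and dup104 (47.9 and 48.9 FPKM in 1KO cells at day 4) and dup192 and dup193 (40.3 and 37.6) are examples, chosen after their values were seen.

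Between the 2 WT days 0 and 2, only dup49 had a difference over 1 among the 426 copies (1.25), and between days 2 and 4 only dup74 had one under −1 (−1.09). In 1KO cells dup411 was the copy with the highest difference between days 2 and 0 (0.56), while the median copy was at −0.54. These copies were also chosen after their values were seen.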
